A study of Mus musculus with 82 samples.

Results

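The 6 mouse genes of nitrogen disposal and amino acid breakdown, Otc, Arg1, Hal, Agxt, Aass and Aadat, were followed in liver RNA of BXD mice on 2-colour arrays. They were chosen by symbol: every probe whose platform symbol is one of these names was taken, which gave 6 probes for 6 genes, out of 3439 named genes among 21915 tested features. All 6 were measured on every array, and no filter on low values was applied. The series holds 82 arrays. Adult liver of 17 BXD strains was hybridised with a pooled reference of B6 embryo RNA, taken at day 17.5, on 40 arrays labelled female and 32 labelled male, and on another 2 arrays liver of B6 males met that embryo mix. On 6 arrays liver of the parent strain C57BL6/J (B6) was set directly against liver of the parent strain DBA2/J (D2). The labels pair females with females and males with males, and 2 further arrays compared RNAs labelled as enriched in the same way. BXD strains are recombinant inbred lines whose genomes are patchworks of the B6 and D2 parents. The series description gives unfasted mice of 10 to 20 weeks, 3 males per strain, whereas the labels carry both sexes. The sources used here do not say whether an RNA was a pool of mice, nor what the enriched RNAs were enriched for. No treatment or engineered allele is named.

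In the urea cycle, hepatocytes turn the ammonia released from amino acids into urea. Otc makes citrulline from ornithine and carbamoyl phosphate in mitochondria, and Arg1 splits arginine into urea and ornithine in the cytosol. Hal (histidase) removes ammonia from histidine as the opening step of histidine breakdown. Agxt moves the amino group of alanine onto glyoxylate and so keeps glyoxylate from becoming oxalate. Aass carries out the opening steps of lysine breakdown, and Aadat transaminates aminoadipate further along that route as well as kynurenine from tryptophan. In textbook accounts all of these are enzymes of adult liver, and urea cycle genes are strongest in the hepatocytes around the portal vein.

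Each value is a log2 ratio of 1 RNA over another, not an amount, so ratios of different genes are not levels of those genes. The deposited ratios name no unit. They were read as log10, because 94 values sit exactly at a bound of 2, and each fold change depends on that choice. No value of the 6 genes sat at the bound or at 0. Direction was set with 11 hepatocyte and 13 embryonic genes, none of them among the 6: the hepatocyte median was above the embryonic median on 74 of 74 arrays with channel 2 taken as the numerator. Forward and dye-swapped arrays of the same RNAs, once turned the same way, correlated at 0.556 to 0.895 over probes in 32 pairs against the mix. The direct B6 and D2 pairs correlated at only -0.019 in males and 0.133 in females. Each direct forward array set against each direct swapped one, across sexes too, gave -0.228 to 0.133 (median -0.089). Over all probes the direct readings thus did not reproduce between orientations. The direction there rests on the same reading of the channels and is likely, not settled. The array titled LV153, a BXD11 female whose title and channel order disagree, was left out. Sex labels of the BXD arrays were checked with 6 sex-dependent genes, all of which passed the test in the direction of the labels. Among them were Eif2s3x (female minus male 0.84) and Cyp7b1 (-2.51). In the direct B6 over D2 ratio, with the channels read as above, the female minus male difference of each had the opposite sign. It was -2.57 for Cyp2b9, 2.56 for Cyp7b1, 0.85 for Uty, 0.51 for Eif2s3y, -0.38 for Eif2s3x and -0.16 for Ddx3x. None passed after adjustment, but no feature of any kind passed in that fit. Whether the female direct arrays compared RNAs of 1 sex was not tested, so strain and sex cannot be told apart there.

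The promoter windows of 4 genes are printed here, because Hal and Aadat had the largest strain F values of the 6 and because Agxt and Aass moved together. Each runs from 250 bases before to 50 bases after the annotated start, read on the gene's strand, from RefSeq (GRCm38.p6). Windows matched 5 of the 6 symbols. Both strands were searched for 4 motifs. The TATA box was written as TATAAA and the CCAAT box as CCAAT. The element bound by C/EBP factors was written as TTGCNNAA. The site of Hnf4a was written as CAAAGTCCA. No matches overlapped in these windows. Capitals mark matches to the 4 motifs. The Hal window lies at chr10:93488518-93488817 on the plus strand, the Aadat window at chr8:60505874-60506173 on the plus strand, the Agxt window at chr1:93134990-93135289 on the plus strand, and the Aass window at chr6:23132937-23133236 on the minus strand.
Hal: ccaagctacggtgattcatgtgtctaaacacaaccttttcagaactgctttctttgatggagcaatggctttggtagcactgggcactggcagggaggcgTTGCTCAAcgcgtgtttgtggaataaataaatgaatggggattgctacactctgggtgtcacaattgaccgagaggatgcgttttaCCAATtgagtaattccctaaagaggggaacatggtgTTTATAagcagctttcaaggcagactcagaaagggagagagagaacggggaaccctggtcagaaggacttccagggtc
Aadat: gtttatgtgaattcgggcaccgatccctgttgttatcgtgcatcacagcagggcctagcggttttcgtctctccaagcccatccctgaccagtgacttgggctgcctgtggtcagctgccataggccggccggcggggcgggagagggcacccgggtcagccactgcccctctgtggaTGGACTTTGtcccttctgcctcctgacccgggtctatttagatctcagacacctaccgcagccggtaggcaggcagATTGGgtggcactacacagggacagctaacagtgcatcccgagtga
Agxt: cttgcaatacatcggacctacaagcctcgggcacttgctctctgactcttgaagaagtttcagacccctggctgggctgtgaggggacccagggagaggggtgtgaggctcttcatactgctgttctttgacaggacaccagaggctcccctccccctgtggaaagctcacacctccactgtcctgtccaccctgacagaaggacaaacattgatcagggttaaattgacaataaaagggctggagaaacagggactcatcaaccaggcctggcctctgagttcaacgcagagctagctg
Aass: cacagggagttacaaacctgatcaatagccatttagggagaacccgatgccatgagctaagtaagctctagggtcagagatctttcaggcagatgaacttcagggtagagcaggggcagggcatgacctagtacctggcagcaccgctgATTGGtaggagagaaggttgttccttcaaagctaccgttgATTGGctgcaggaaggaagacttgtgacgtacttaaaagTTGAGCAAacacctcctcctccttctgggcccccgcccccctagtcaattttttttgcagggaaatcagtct
Hal held TTGCTCAA starting 150 bases before the start, and TATAAA on the opposite strand starting 28 bases before it. Aass held TTGAGCAA, the reverse complement of the Hal match, 22 bases before its own start. Aadat held the CAAAGTCCA site on the opposite strand, 72 bases before the start. The CCAAT box was found in Hal 64 bases before the start, in Aass on the opposite strand 101 and 61 bases before it, and in Aadat on the opposite strand 4 bases after it. Neither the Agxt window nor the Otc window held any of the 4 motifs. Of 32851 mouse promoter windows of the same length, 13.6% held TATAAA, 10.8% held TTGCNNAA, 0.5% held CAAAGTCCA and 37.4% held CCAAT. These matches describe the letters only, and no binding was measured.

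Adult liver carried far more transcript of 5 of the 6 genes than the embryo mix did, and Aadat stood apart. Agxt was 20.3-fold, Aass 14.5-fold, Otc 10.3-fold, Arg1 6.63-fold and Hal 4.91-fold higher in liver. Aadat was 1.34-fold higher. The test was limma's moderated test on the means of the 13 strains that had both dye orientations in both sexes, with p-values adjusted by Benjamini-Hochberg across all features (threshold 0.05) and an absolute log2 ratio of at least 1. By that rule 5 of the 6 were higher, 0 were lower and Aadat did not reach the size. Of all 21915 features 13.9% passed, 4.72% higher and 9.22% lower in liver. The same 5 genes were above 0 in all 26 values of strain and sex, as were 22.9% of features. The median ratio of the 6 genes was 3.04, against 0.07 over all features. The mix is 1 RNA whose own variation the test cannot see, and in whole liver more cells of a type cannot be told apart from more RNA per cell.

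Otc and Arg1, the urea cycle pair, were both higher in liver, and Otc had the wider SD between strains. Over 71 single arrays the Otc ratio ran from 2.23 to 4.61 with a median of 3.27, and the Arg1 ratio from 1.90 to 3.84 with a median of 2.67. On strain means Otc averaged 3.36 ± 0.27 (SD, n = 13 strains, adjusted p = 2.43e-16 by limma) and Arg1 2.73 ± 0.09 (adjusted p = 3.95e-20). Arg1 had the smallest SD between strains of the 6, although its swapped arrays read higher than their forward partners in 28 of 31 BXD pairs, by 0.48 ± 0.50 (SD).

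Agxt, the glyoxylate enzyme, had the highest ratio, from 3.67 to 4.86 on single arrays with a median of 4.36. Its strain mean was 4.34 ± 0.12 (SD, n = 13, adjusted p = 3.21e-21 by limma), above 99.89% of all features. Aass, at the head of lysine breakdown, ran from 2.75 to 4.97 with a median of 3.72 and averaged 3.86 ± 0.24 (adjusted p = 1.13e-17). Hal spread the most, from 0.80 to 3.54 with a median of 2.27, and averaged 2.30 ± 0.53 (adjusted p = 1.39e-10). Aadat ran from -0.36 to 1.20 with a median of 0.54 and was above 0 on 58 of 71 arrays, whereas the other 5 genes were above 0 on all 71. The Aadat strain mean was 0.42 ± 0.28 (adjusted p = 4.60e-05), under the size threshold. It was 0.61 on forward arrays alone and 0.23 on swapped arrays alone, where it no longer differed from 0 (adjusted p = 0.0522).

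The order of these ratios, Agxt over Aass over Otc over Arg1 over Hal over Aadat, held at nearly every step within strains. Agxt exceeded Aass by 0.48 ± 0.16 (SD), Aass exceeded Otc by 0.50 ± 0.39, and Otc exceeded Arg1 by 0.63 ± 0.23, each in 13 of 13 strains. Arg1 exceeded Hal by 0.43 ± 0.57 in 10 of 13 strains, a mean gap smaller than its SD. No test of these gaps was run. Hal exceeded Aadat by 1.88 ± 0.61 in all 13. If the deposited values were log2 instead of log10, Arg1 (0.82) and Hal (0.69) would fall under the size threshold and 3 of the 6 would pass.

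**Figure D1:**
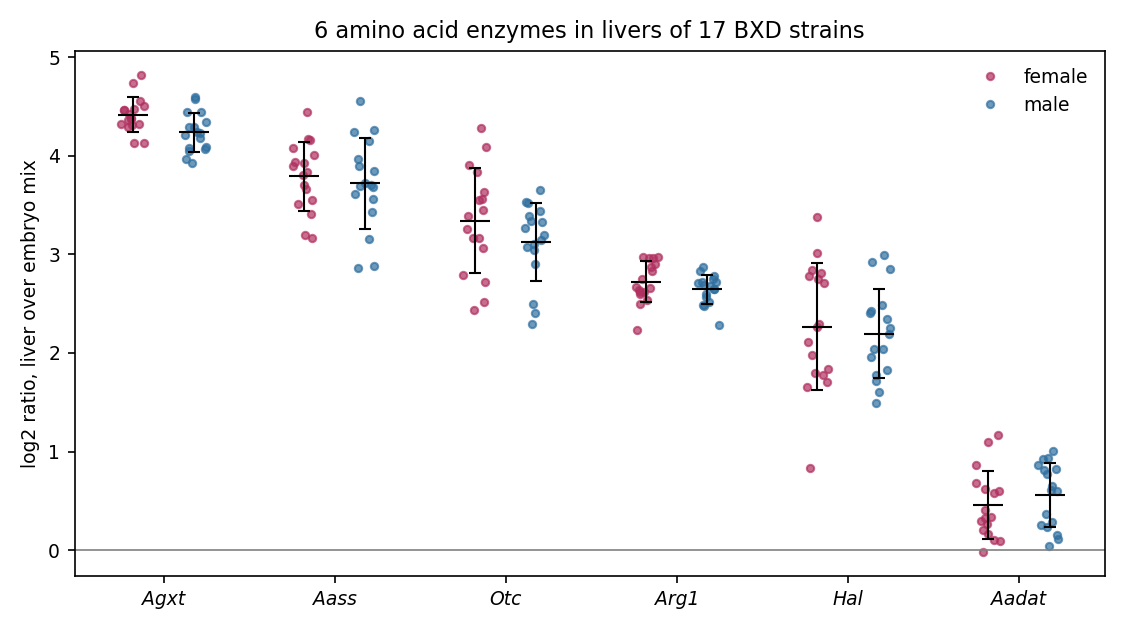
Log2 ratio of liver over the embryo mix for each of the 6 genes, with 1 point per BXD strain (17 strains), females left of males; bars give the mean and SD over strains. Agxt, Aass, Otc, Arg1 and Hal lie above 0 in every strain and sex, while Aadat lies near 0, between -0.02 and 1.17.

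Of 17 measured genes from lists of the urea cycle, transamination, glyoxylate, aromatic, branched-chain and proline routes, 10 were higher and 0 lower in liver by the rule above, with a median ratio of 1.25. The 7 that did not pass ran from -0.38 for Tdh to 0.94 for Gstz1, and none of 3 transamination, serine and glycine genes passed. Hgd, which opens the aromatic ring in tyrosine breakdown, had a log2 ratio of 3.76, and Prodh, which starts proline breakdown, had 2.87. Hao1, the peroxisomal oxidase that makes the glyoxylate used by Agxt, stood at 2.42. Around the urea cycle, 4 of 5 measured genes passed: the glutamate dehydrogenase Glud1 at 1.84, the aspartate and glutamate carrier Slc25a13 at 1.76, the ornithine aminotransferase Oat at 1.42 and the mitochondrial ornithine carrier Slc25a15 at 1.25. In branched-chain breakdown Bckdha (2.0) and Pccb (1.16) were among those that passed. Among 5 measured regulators of these genes, the glucagon receptor Gcgr (1.60), Cebpb (1.45) and Ppara (1.39) were higher.

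Agxt was slightly higher in females than in males of the same strains, and the other 5 genes did not pass the test between the sexes. The Agxt ratio ran from 4.13 to 4.82 with a median of 4.38 in females, against 3.92 to 4.60 with a median of 4.23 in males (17 strains each). The ranges overlapped, and the female value was the higher one in 13 of 17 strains. The mean difference, female minus male, was 0.18 ± 0.26 (SD, n = 17 strains), a 1.13-fold change with an adjusted p of 0.0334 by limma with strain as a block. In this comparison 33.3% of all features passed (16.2% higher and 17.1% lower in females), so 1 call among 6 genes is below that share. The difference was largest in BXD2, where Agxt was 4.74 in females against 3.92 in males.

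The Agxt call rested on the setting. It was lost with quantile normalization (0.04, adjusted p = 0.648), with trend and robust variance (adjusted p = 0.0612), on forward arrays alone (0.08, adjusted p = 0.485), and whenever BXD2, 12, 14, 18, 19 or 21 was left out (0.14 to 0.18, adjusted p 0.0519 to 0.0667). Over all 31 alternatives the adjusted p ran from 0.0084 to 0.693 and the difference from 0.04 to 0.73, the largest with scaled arrays, and it was 0.33 on swapped arrays alone (adjusted p = 0.0167). Arrays were deposited in runs of consecutive numbers, which are not labelled as batches, and sex was unevenly spread over them. Within the 5 runs that held both sexes the Agxt difference was -0.01 (2 female and 2 male values), -0.31 (1 and 5), 0.34 (4 and 2), 0.17 (3 and 3) and -0.04 (1 and 1). With the run as a term in place of the strain block it was 0.08 (adjusted p = 0.463), and with run and strain as terms 0.08 (0.548). In the main fit 16.2% of all features were higher and 17.1% lower in females. Among markers measured beside Agxt, 4 of 11 hepatocyte genes were higher and 0 lower in females (list median 3.54 to 4.25 over female strain values, 3.60 to 4.16 over male ones). Macrophage markers had 3 of 5 higher and 1 lower (list median 0.01 to 0.66 in females, -0.22 to 0.45 in males), and 4 of 7 pericentral genes were higher and 0 lower. Of 6 periportal genes 1 was higher and 2 lower, of 5 endothelial genes 1 was higher and 2 lower, and of 4 stellate genes 2 were higher and 0 lower. Lymphocyte markers had 1 of 3 higher and 0 lower, and red cell markers 0 of 4 higher and 1 lower. Their part in the result was not tested.

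The other 5 genes gave no call between the sexes in this fit. Otc ran from 2.43 to 4.28 with a median of 3.39 in females, against 2.29 to 3.66 with a median of 3.20 in males. Its mean difference was 0.22 ± 0.51 (adjusted p = 0.161), positive in 11 of 17 strains. Otc and Arg1 passed with scaled arrays (0.57, adjusted p = 0.00973, and 0.42, adjusted p = 0.0253) and on swapped arrays alone (0.61, 0.00619, and 0.43, 0.00804), and both turned sign on forward arrays alone (-0.08 and -0.17). For Arg1 the difference was 0.08 ± 0.21 (adjusted p = 0.285), for Hal 0.07 ± 0.50 (0.677), for Aass 0.07 ± 0.44 (0.622) and for Aadat -0.10 ± 0.30 (0.318). Hal differed by 0.99 in favour of the male in BXD12, whose female value of 0.84 was the lowest of all, and by 1.07 in favour of the female in BXD27. Within the 5 runs the Hal difference was 0.11 to 1.13 and positive in each. With the run as a term in place of the strain block Hal passed (0.61, adjusted p = 0.0144), and with run and strain as terms it did not (0.39, 0.0831). Runs held different strains, and the part of strain in this was not tested. Among the 17 neighbouring enzymes, Auh of leucine breakdown (0.34) and the mitochondrial threonine pathway enzyme Gcat (0.23) were higher in females, and Arg2, the mitochondrial arginase, was lower (-0.22).

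**Figure D2:**
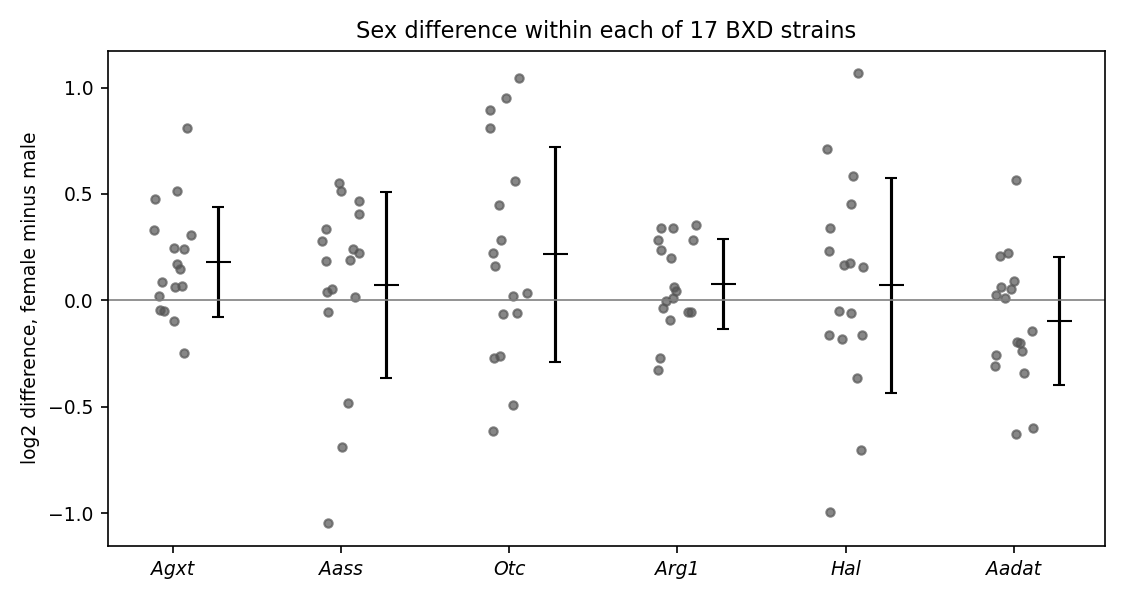
Female minus male difference in log2 ratio within each of 17 BXD strains, 1 point per strain, with the mean and SD at the right of each gene. Agxt lies above 0 in 13 strains, and for every gene the spread between strains is wider than the distance of the mean from 0.

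Hal and Aadat varied the most among BXD strains relative to the difference between the sexes of a strain, and both narrowly missed the threshold. The question was put with a moderated F test over 13 strains, with the female and male values as replicates of a strain and sex as a term. None of the 6 genes passed, where 1.21% of all features did. At an unadjusted p under 0.05, 14.2% of features and 2 of the 6 genes, Hal and Aadat, passed. The Hal F was 5.65 (adjusted p = 0.0683) and the Aadat F was 6.02 (adjusted p = 0.0567), with 1.67% and 1.41% of features having a smaller p.

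Hal was lowest in BXD12, at 0.84 in the female and 1.83 in the male. BXD19 followed at 1.78 and 1.60, in the same order of sexes. At the other end BXD11 had 3.38 in the female and 2.93 in the male, BXD15 had 3.02 and 2.85, and BXD6 had 2.81 and 3.0. These 3 strains were above the rest in their mean of both sexes, with a gap of 0.31 to BXD16, the next strain below. The strain means ran from 1.33 in BXD12 to 3.15 in BXD11, a 3.53-fold range, with an SD of 0.53 between strains against a residual SD of 0.34. The SD between strains was above that of 99.05% of features. Where a strain and sex had a second replicate number, Hal differed between the numbers by -0.30 to 0.49 in 5 groups. Hal passed the test with replicate 1 arrays only, with all 17 strains, and without BXD5 (adjusted p = 0.0486) or BXD21 (0.0462). It was further from passing on swapped arrays alone (0.327), with scaled arrays (0.214), with quantile normalization (0.175), and without BXD15 (0.151) or BXD11 (0.148). With all 17 strains 5642 features passed, and 4 of those strains lack swapped arrays.

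The strain means of Aadat lay on either side of a gap. BXD18, 16, 31, 32, 5, 19 and 11 had strain means of 0.07 to 0.27, and BXD6, 21, 2, 12, 15 and 28 had means of 0.50 to 0.82. The gap of 0.23 between BXD11 and BXD6 was the widest in the order, and the next widest was 0.11. The whole range was 1.68-fold. The residual SD between the sexes was 0.16, smaller than that of Hal, and 5 of the 6 strains above the median in females were also above it in males. BXD21 was uneven, with 0.29 in the female and 0.92 in the male. Single arrays scattered more widely than strains did, and swapped minus forward arrays of the same RNA gave -0.38 ± 0.44 (SD), with the swapped array higher in 4 of 31 pairs, a shift wider than the gap between the strain groups. Between replicate numbers of a strain and sex Aadat differed by -0.40 to 0.10 in 5 groups, with -0.38 in BXD6 males, next to the gap. Aadat passed with scaled arrays, with quantile normalization, with all 17 strains, and without BXD5 (adjusted p = 0.0430) or BXD21 (0.0228). On forward arrays alone its adjusted p was 0.429, on swapped arrays alone 0.220, and without BXD15 it was 0.123.

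**Figure D3:**
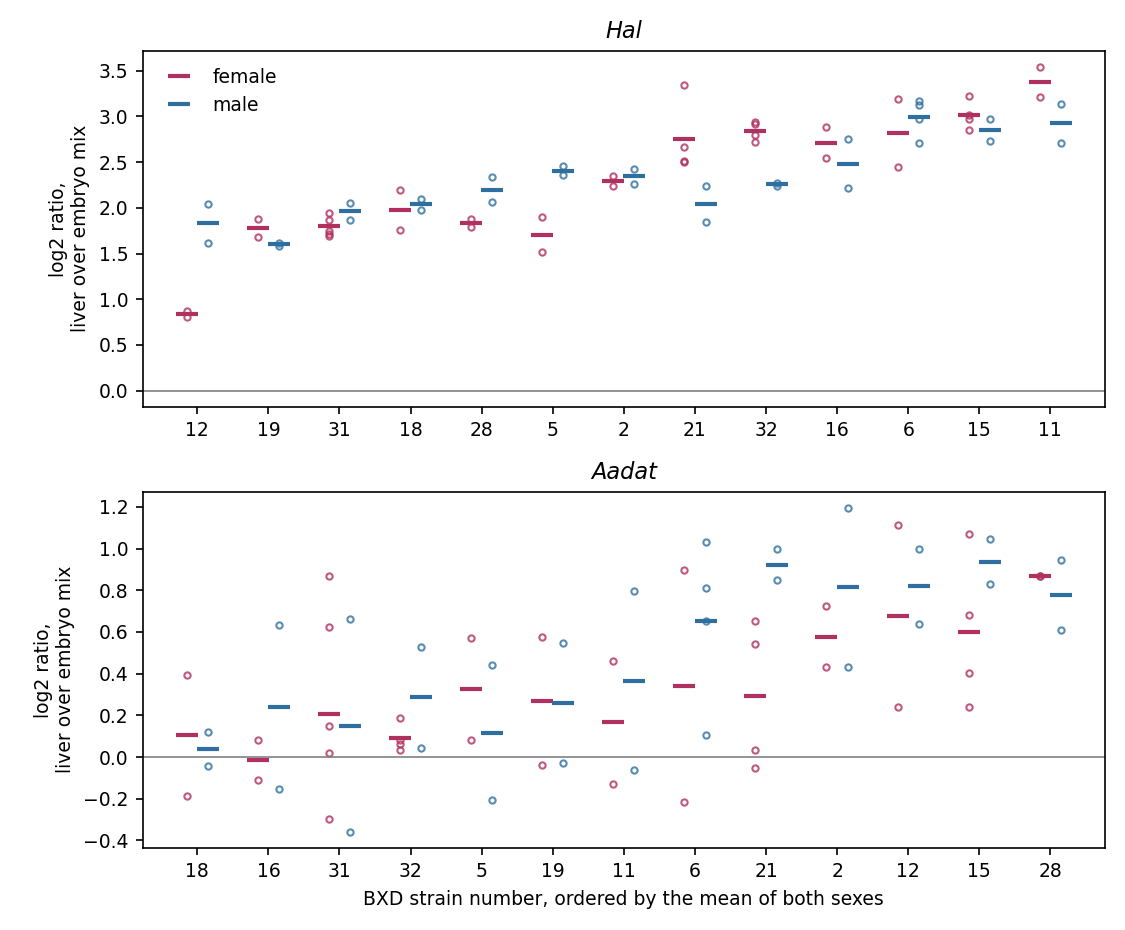
Hal (top) and Aadat (bottom) in 13 BXD strains ordered by the mean of both sexes, as log2 ratio of liver over the embryo mix; open points are single arrays and bars the value of each strain and sex, females left of males. Hal climbs from 1.33 in BXD12 to 3.15 in BXD11, while Aadat arrays of 1 strain often spread as widely as the strains do.

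The remaining 4 genes showed strain ranges that the difference between sexes covered. Otc spanned 1.84-fold over strain means with a residual SD of 0.38 (adjusted p = 0.634), Aass 1.90-fold with 0.33 (0.627), Agxt 1.32-fold with 0.20 (0.788) and Arg1 1.20-fold with 0.16 (0.902). A p that misses the threshold does not show that the strains were alike. Of the 17 neighbouring enzymes 1 passed, Gcat (SD between strains 0.37, adjusted p = 0.0217), from -0.24 in BXD18 to 0.89 in BXD6. Among the regulators Ppargc1a, a coactivator that rises in fasting liver, passed (SD 0.71, adjusted p = 0.00496), from -1.35 in BXD28 to 1.57 in BXD32. None of 5 macrophage, 5 endothelial, 4 stellate, 3 lymphocyte, 4 red cell or 6 periportal genes passed over strains, and Cyp2c29, which is on both the hepatocyte list (1 of 11) and the pericentral list (1 of 7), did (SD 0.48, adjusted p = 0.0486). The median of the hepatocyte list was 4.02 in BXD11 and 3.91 in BXD12, the strains at the ends of the Hal order, within a range of 3.78 to 4.11 over all 13.

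Agxt and Aass were the most alike pair of the 6 over strains. Over the 34 values of strain and sex, with the mean of each sex removed, Agxt correlated with Aass at a Pearson r of 0.62 and, over 13 strain means, at 0.81. Aass was the most similar of 3436 named genes to Agxt, ahead of Apoc4 (0.61) and Rdh16 (0.60). Every other pair of the 6 lay between -0.22 and 0.34, Otc and Arg1 at 0.15 among them. These correlations are descriptions, since all values share the mix, the array design and any effect of a library. BXD5, BXD12 and BXD32 were above the median of the sex for both genes in both sexes. In BXD12 Aass was 4.45 and Agxt 4.82 in the female, and 4.26 and 4.35 in the male.

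**Figure D4:**
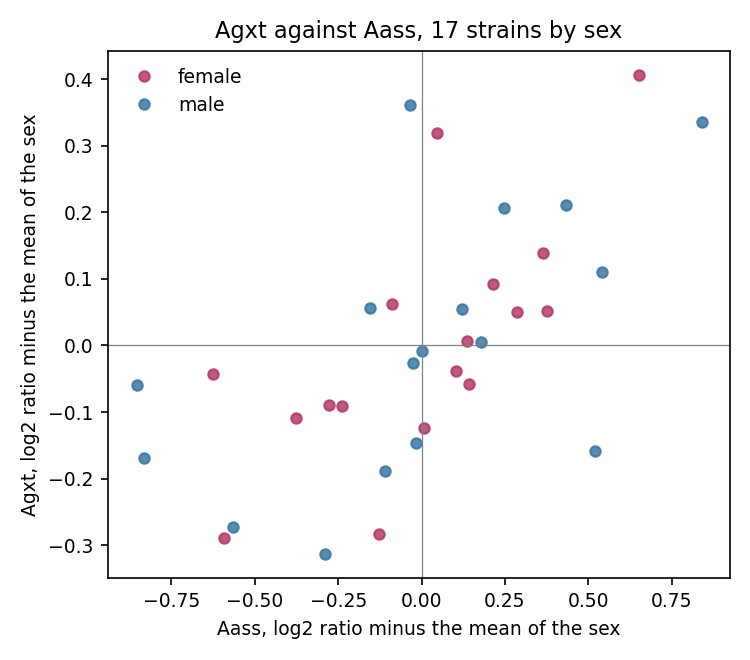
Agxt against Aass in 17 BXD strains, each axis the log2 ratio of liver over the embryo mix minus the mean of the sex, 1 point per strain and sex. The genes move together (Pearson r 0.62 over 34 values).

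By the same measure the 3 most similar named genes were Rps6kb2 (0.79), Cspg5 (0.78) and Atpif1 (0.77) for Otc, and Sat1 (0.69), Lamtor3 (0.68) and Prdx5 (0.63) for Arg1. Hal was closest to Ly6e (0.73), Usp10 (0.72) and Actg1 (0.72). For Aass they were Gh (0.66), Rnf103 (0.65) and Ciita (0.64), and for Aadat Nudt2 (0.75), Adam17 (0.70) and Tshb (0.68). Over the 13 strain means (both sexes averaged) the correlations of these closest genes ran from 0.34 (Rdh16 with Agxt) to 0.84 (Nudt2 with Aadat), and Sat1 with Arg1 had 0.39, Rnf103 with Aass 0.41 and Rps6kb2 with Otc 0.60. Apart from Aass beside Agxt, none of the 6 genes and none of the neighbouring enzymes appeared among these.

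Set directly against D2 liver, B6 liver had lower readings of Arg1, Hal, Agxt and Aass and mean readings near 0 for Otc and Aadat, but none of the 6 passed the test. Of all features 0.178% passed, and 13.2% had an unadjusted p under 0.05, as did 4 of the 6 genes. The test was limma's on 4 values, 1 per sex and replicate number. The median of the 6 genes was -0.44, against 0.01 over all features. The hepatocyte list, with none of the 6, had readings below 0 too: 7 of 11 genes were below 0 with a median of -0.30, and all 5 with an unadjusted p under 0.05 were below 0, among them Mat1a at -0.47 and Mbl2 at -0.60. None of the 11 passed after adjustment, and the part of this list in the readings of the 6 was not tested.

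Arg1 was the most even. The B6 over D2 ratio was -0.44 and -0.38 in females and -0.32 and -0.42 in males, and it was below 0 on all 6 direct arrays and on both enriched arrays (-0.09 and -0.18). Its mean was -0.39 ± 0.05 (SD, n = 4, adjusted p = 0.182 by limma), with 1.17% of features having a smaller p. Hal was below 0 on all 8 arrays too. Its values were -0.79 and -0.77 in females and -0.12 and -0.32 in males, with a mean of -0.50 ± 0.33 (adjusted p = 0.353), and the female and male values did not overlap.

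Agxt gave -0.63 and -0.74 in females and -0.11 and -0.50 in males, with a mean of -0.50 ± 0.27 (adjusted p = 0.301 by limma). One male forward array lay above 0, at 0.08, and the female forward array read -0.41, against -0.31 to -0.85 on swapped arrays. Aass gave -0.30 and -0.24 in females and -0.47 and -1.25 in males, with a mean of -0.57 ± 0.46 (adjusted p = 0.376), and the enriched male array read 0.25. Its direct forward arrays read -0.02 and -0.22, against -0.24 to -1.25 on direct swapped arrays. Otc averaged -0.06 ± 0.16 (adjusted p = 0.744) and Aadat 0.02 ± 0.40 (adjusted p = 0.969). Aadat was above 0 in both values numbered 1 and below 0 in both values numbered 2, which came from swapped arrays only. None of the 17 neighbouring enzymes and none of the 5 regulators passed.

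**Figure D5:**
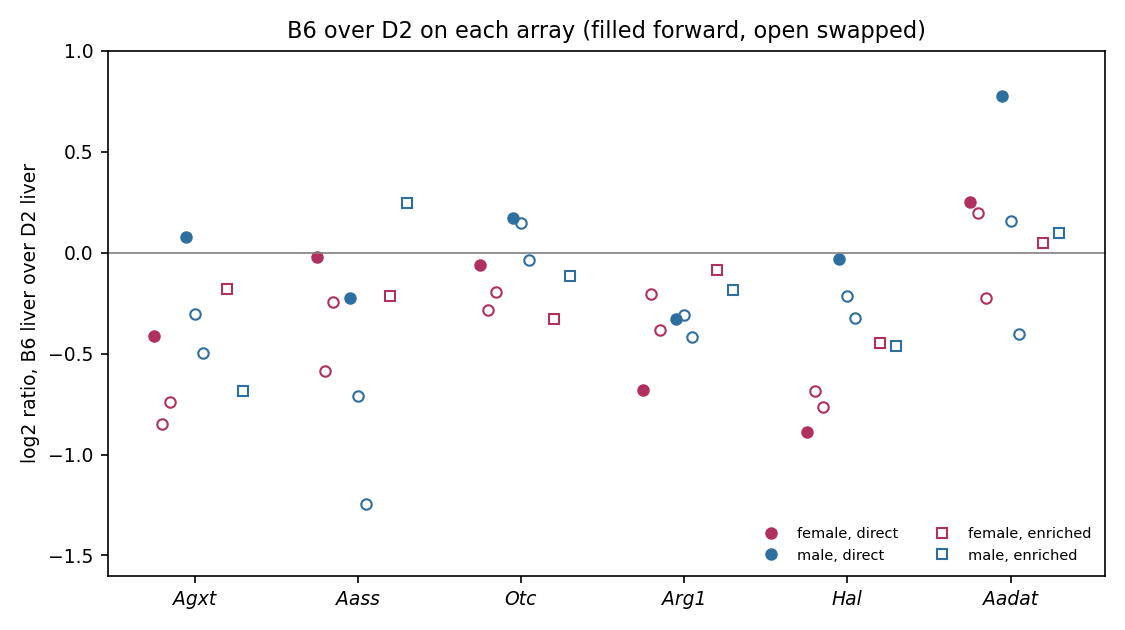
Log2 ratio of B6 liver over D2 liver on each of 6 direct arrays (circles) and 2 arrays of enriched RNA (squares), females left of males, filled for forward and open for swapped arrays. Arg1 and Hal lie below 0 on all 8 arrays, and the other genes fall on both sides of 0.

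The difference between the sexes in this ratio was tested with a sex term on the same 4 values. No feature passed in limma (0%), while 7.63% had an unadjusted p under 0.05. Hal was the 1 gene of the 6 among these, with a difference, female minus male, of -0.55 and an adjusted p of 0.611 by limma. For the other 5 the difference ran from -0.38 for Agxt to 0.58 for Aass, with adjusted p of 0.67 to 0.98. In the same limma fit the sex-dependent genes Cyp2b9 and Cyp7b1 differed by -2.57 and 2.56 (adjusted p = 0.290 and 0.249, unadjusted p = 0.000104 and 4.54e-05). In the values labelled female, a difference of sex between the RNAs therefore cannot be told apart from B6 against D2. The B6 over D2 means of the 6 genes include those values.

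The pair of B6 male arrays against the embryo mix gave an indirect view of the same parent. For Agxt the B6 males read 3.45 (3.49 forward, 3.40 swapped), against 3.92 to 4.57 with a median of 4.24 in males of the 13 BXD strains, so the B6 value was below all 13. Of all features 6.06% were below that range in B6 males and 14.9% were outside it on either side, as was 1 of the 6 genes. With arrays scaled to 1 spread the direction turned, to 0.31 above the BXD male mean, against -0.80 unscaled. The other 5 genes lay within the BXD range: Otc at 3.22 (BXD males 2.41 to 3.66), Arg1 at 2.79 (2.49 to 2.87), Hal at 2.02 (1.60 to 3.0), Aass at 3.88 (3.15 to 4.56) and Aadat at 0.41 (0.04 to 0.94). The median of the hepatocyte list, 3.87 in B6 males, was inside its range of 3.60 to 4.16 in BXD males. This is 1 sample with no test.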

How the data were processed

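For each array the authors deposited log ratios, 1 a probe, whose unit the labels leave out. The deposited values were read as log10 ratios and multiplied by 3.32 to log2. The sources used here give no scanner, normalization or background correction. Array medians lay between -0.08 and 0.12, and depth on arrays is limited by their number. Values of swapped arrays were multiplied by -1. The value of a strain and sex is the mean of its forward mean and its swapped mean.

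Gene names came from the platform annotation (3290 probes with 1 symbol, 4 with several) and, by accession, from a RefSeq gene table (GRCm38.p6, another 170 probes), and 18476 probes had no name here. Probes of 1 symbol were averaged for 18 genes, none of the 6.

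Fits were made in limma 3.58.1 under R 4.3.3 (lmFit, eBayes), with Benjamini-Hochberg adjustment at 0.05 over 21915 features, and the fits were tested on simulated data. The labels do not say that replicates are separate animals, so p-values measure the spread between these samples. Named genes were the 6, any member of the route and regulator lists that passed, and the 3 most similar genes by Pearson correlation. A few results that fall under this rule are not reported here. The members and lists were chosen with earlier results of these data known. Alternatives covered centring, scaling, quantile normalization, variance settings, orientation, replicates, strain sets, single strains or values left out, log base, size threshold, runs of deposited arrays, the enriched arrays, a replicate block and a dye term. Of these, the run and strain terms together, and the fit with neither, were added after seeing the data.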

Additional observations from a re-analysis of the deposited data

Results flagged for a closer look

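Agxt was marked because females and males of the same strains differed by a test: 0.179 (log2, female minus male). Among 36 groups of 4 to 5 values (the 6 genes in BXD6 males, in BXD15, 21, 31 and 32 females, and in the B6 over D2 values), 0 held a value far from the rest by Dixon's test, which chance alone would meet in about 1 of 20 groups.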

How the results depend on the processing

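Against the embryo mix, 3055 features and 5 of the 6 genes passed. These became 209 and 3 with values read as log2, and 18401 features without the size threshold. With a strain left out in turn they were 3011 to 3114 and 5. Between the sexes 7295 features and 1 gene passed. The number of the 6 genes called was 3 with scaled arrays or swapped arrays only, 0 with quantile normalization, trend and robust variance, or forward arrays only, 0 (and 0 features) in the 4 strains with forward arrays only, and 0 (4375 features) with run and strain as terms. With run in place of the strain block the 1 gene called was Hal, not Agxt. Leaving out strains gave 6543 to 8069 features and 0 to 1 genes. Signs turned for Aass under quantile normalization (-0.020), for Otc, Arg1 and Aass on forward arrays (-0.075, -0.172 and -0.125), for Hal and Aass in strains with both orientations (-0.015 and -0.003), for Arg1 and Aadat in forward-only strains (-0.021 and 0.053), with run as a term (-0.061 and 0.066), and with run and strain as terms (-0.11 and 0.01). Strain differences gave 265 features and 0 genes: 1 gene with scaled arrays, quantile normalization or replicate 1 only, 147 features on forward and 101 on swapped arrays, 5642 features and 2 genes with all 17 strains, and 150 (without BXD15) to 286 features and 0 to 2 genes with a strain left out. For B6 over D2 the 39 features became 77 with scaling, 0 with trend and robust variance, 274 with a dye term, 25 with replicate 1 only and 510 with the enriched arrays. They became 0 to 29 without each value in turn: 3 without female 1, 0 without male 1 and 2 without male 2. Aadat ran from -0.136 to 0.155, with -0.054 without female 1 and -0.136 without male 1. With a replicate block 9 features and 0 of the 6 genes passed, and the numbers do not pair the samples in the labels (deviations of the values numbered 1 correlated at 0.33 between the sexes). The sex difference in that ratio gave 0 features, and 1 with trend and robust variance. There Arg1 turned to 0.015 with scaling and 0.003 with the enriched arrays. Without each value Arg1 ran from -0.094 to 0.005 (without male 1) and Aadat from -0.468 to 0.404 (0.191 without female 2, 0.404 without male 1). With scaling 3 of the 6 genes, not 1, lay outside the BXD male range in B6 males. The causes were not tested. Signal over background was not analysed here, so how far dim probes compress these ratios is unknown.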
